A study of Mus musculus with 2 samples.

Results

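The genes described here are the amino acid transporters of 7 solute carrier (SLC) families: the genes annotated as protein-coding whose mouse symbol starts with Slc1a, Slc3a, Slc6a, Slc7a, Slc36a, Slc38a or Slc43a and a digit. Of 55487 genes in the table, 21897 of them protein-coding, 64 met this rule. They were measured by RNA sequencing in 2 cultures of lineage-negative C57BL/6 mouse bone marrow cells, a fraction enriched for stem and progenitor cells. One culture carried the retroviral vector pMYs-IG_3xHA-EVI1-WT and the other pMYs-IG_3xHA-EVI1+18, so both overexpressed a tagged form of EVI1, a zinc finger transcription factor of the Mecom locus. EVI1+18 is a product of aberrant EVI1 splicing. In both arms, cells sorted for green fluorescence 3 days after infection were plated at 10000 cells and grown in methylcellulose for about 3 weeks, and the age and sex of the mice are not given in the labels. No culture lacking a vector is part of this comparison, and each form was represented by 1 library. No difference below therefore has a replicate check, and each bracketed 95% interval covers counting error only.

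Amino acid transporters set which building blocks a growing blood cell can take from its medium. Slc7a5, Slc7a6, Slc7a7, Slc7a8 and Slc7a11 encode light chains that work at the cell surface as heteromers with the heavy chain Slc3a2 (CD98). The SLC1 and SLC38 carriers bring in alanine, serine, glutamine and related neutral amino acids, the cationic SLC7 carriers bring in arginine and lysine, and SLC6 carriers take up glycine, proline, taurine and related molecules with sodium and chloride. When amino acids run short, the kinase GCN2 raises translation of the transcription factor ATF4, which binds C/EBP-ATF response elements in the promoters of several transporter genes, and transported amino acids in turn are sensed by the mTORC1 kinase complex at the lysosome.

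The core of that response element, TGATGNAA, was searched on both strands in RefSeq promoter windows (GRCm38.p6), which run from 250 bases before a gene's start to 50 bases after it. Slc1a4 and Slc7a11 are shown because both hold the element while their levels lay on opposite sides of equality in these libraries. The windows are chr11:20332664-20332963 for Slc1a4 and chr3:50443564-50443863 for Slc7a11, both on the minus strand and written 5′ to 3′, with the matches in capitals.
Slc1a4: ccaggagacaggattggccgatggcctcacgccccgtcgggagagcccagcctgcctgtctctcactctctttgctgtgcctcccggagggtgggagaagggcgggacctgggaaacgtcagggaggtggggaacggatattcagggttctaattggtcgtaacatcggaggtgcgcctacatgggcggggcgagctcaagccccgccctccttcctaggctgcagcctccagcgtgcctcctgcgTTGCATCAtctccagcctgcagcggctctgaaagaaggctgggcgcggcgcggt
Slc7a11: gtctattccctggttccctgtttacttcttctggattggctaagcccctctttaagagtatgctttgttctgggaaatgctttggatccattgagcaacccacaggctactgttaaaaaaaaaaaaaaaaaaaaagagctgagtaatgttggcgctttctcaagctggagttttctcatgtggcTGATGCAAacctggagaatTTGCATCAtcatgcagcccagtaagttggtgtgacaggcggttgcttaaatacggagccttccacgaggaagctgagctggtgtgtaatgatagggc
In Slc1a4 the match lies on the reverse strand, with its first base in the window 4 bases before the start. Slc7a11, the cystine and glutamate exchanger, holds 2 matches facing opposite ways, 66 and 47 bases before the start. A window was found for 24 of the 33 transporter genes that passed the expression filter described below, and 3 of these genes held a match. The other was Slc7a7, which lay on the same side as Slc1a4, with a ratio of 1.31 (1.01 to 1.69). The contrast between the 2 windows shown thus follows from choosing them by their values. Counted the same way, per gene, a match was held by 4.51% of all 27025 genes with a window and by 2.85% of the 9545 genes with a window that passed the filter. A match in these letters is a description of the window and not evidence of binding.

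Of the 64 genes, 33 reached at least 1 scaled CPM (the deposited counts as CPM after TMM library scaling) in a library, and the other 31 did not. Among those 31, 22 had 0 counts in both libraries, where a count of 0 allows up to 3 counts, or 0.150 and 0.140 scaled CPM in the EVI1-WT and EVI1+18 libraries. They include the high-affinity glutamate carriers of the brain, Slc1a1, Slc1a2 and Slc1a3, and the GABA carrier Slc6a11. The other 9 held at most 18 counts in EVI1-WT and 15 in EVI1+18. Slc3a1, the heavy chain of the kidney cystine transporter, had 1 count in each library. Of 20480447 counts in the EVI1-WT library and 20981903 in the EVI1+18 library, the 64 genes together held 0.312% and 0.292%.

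Calls were made where all of a counting interval exceeded 2-fold in 1 direction. By this rule 8 transporter genes were higher in EVI1+18, 1 was lower and 24 were neither, where 5.05% of all 13183 genes above the filter were higher and 5.1% lower. The 8 were Slc6a20a, Slc6a20b, Slc7a3, Slc43a1, Slc38a5, Slc6a9, Slc1a4 and Slc43a3, and the 1 was Slc7a8. The first 5 of the 8 passed the filter only through the EVI1+18 library, so they could only be counted because they were higher there. Among the 28 genes that passed in both libraries, 3 were higher and 1 lower, beside 2.99% and 3.68% of all 11918 such genes (6.67% in either direction). The median log2 ratio was 0.17 over the 33 genes and -0.10 over the 28, and 0.01 over all genes under either filter. Of the 33 intervals, 15 lay wholly above 1, 13 wholly below and 5 held 1, and the 5 genes that passed only through EVI1+18 are among the 15. Of the 28 genes that passed in both libraries, 12 had a ratio above 1 and 16 below.

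**Figure D1:**
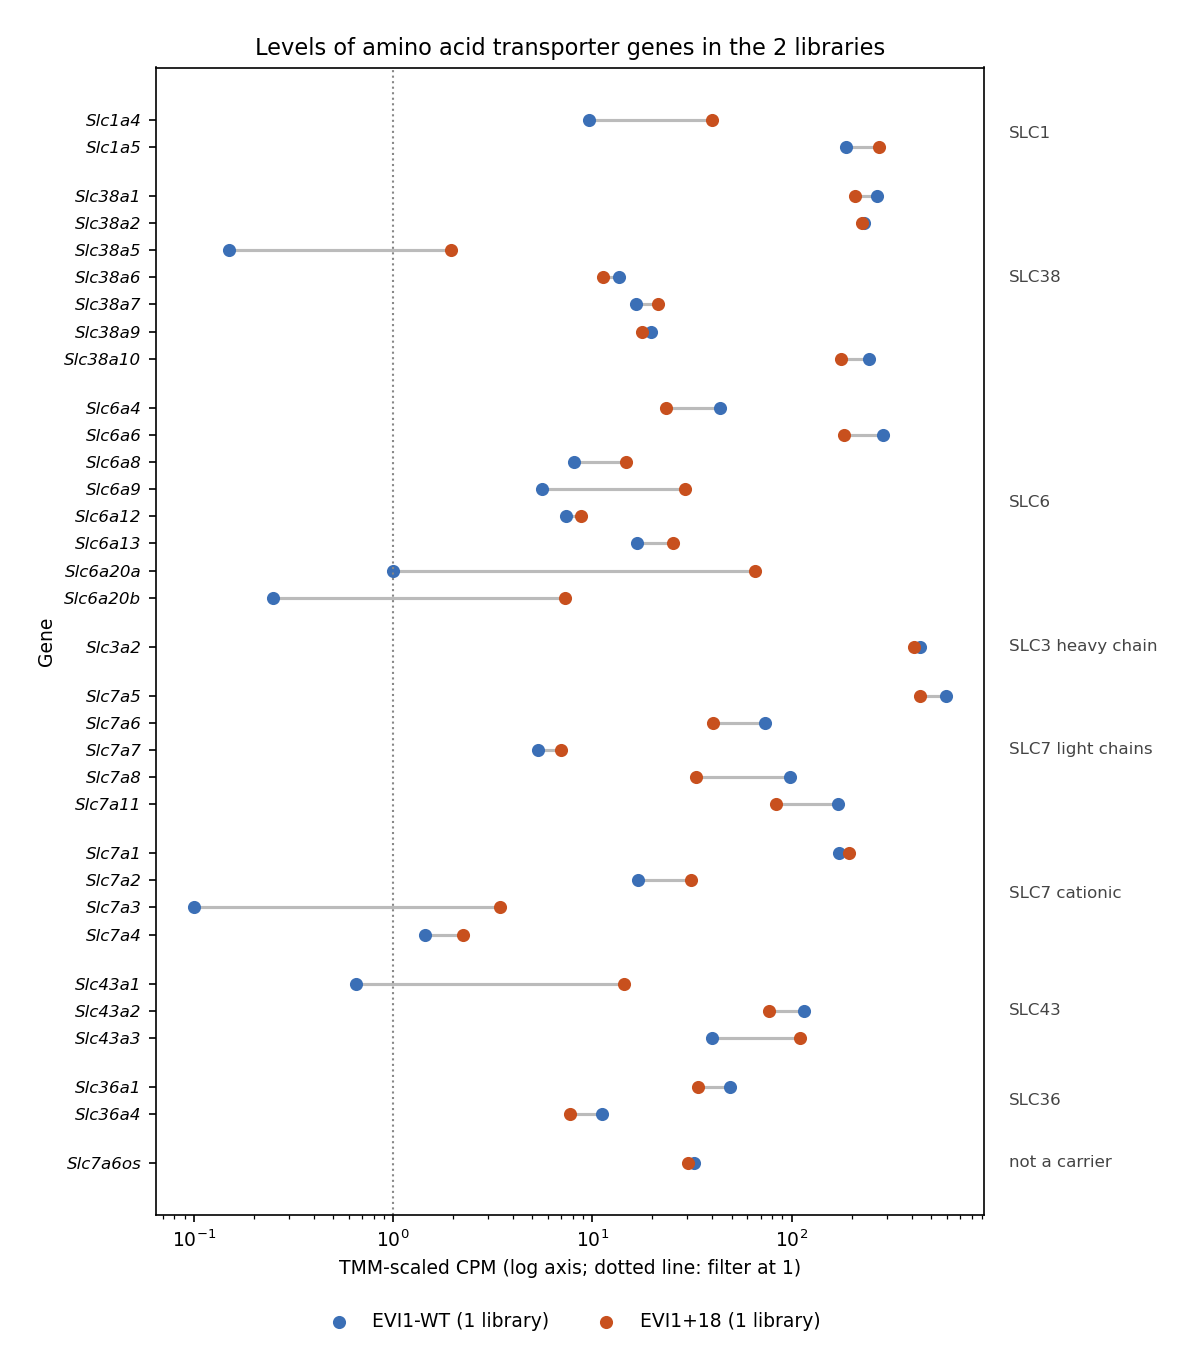
TMM-scaled CPM on a log axis for the 33 transporter genes above the filter, grouped by family, with 1 point for the EVI1-WT library and 1 for the EVI1+18 library. Slc6a20a, Slc6a20b, Slc7a3, Slc43a1 and Slc38a5 lie left of the filter line (1 scaled CPM) in EVI1-WT and right of it in EVI1+18.

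Markers of several blood lineages moved between the same libraries. Of 12 erythroid markers, 11 were at least 2-fold higher in EVI1+18, with summed levels of 1413 and 12927 scaled CPM (EVI1-WT first, here and below). Of 8 megakaryocyte markers, 6 were higher (465 and 1269 summed), with Gp1bb and Tubb1 among those at 0 in EVI1-WT. Of 11 mast cell and basophil markers, 8 were lower and 1 higher (12656 and 1973 summed). All 8 neutrophil markers lay below equality, 6 of them at least 2-fold lower (2893 and 967 summed), as were 4 of 5 eosinophil markers (853 and 150 summed). Of 9 macrophage markers, 3 were higher and 1 lower (757 and 1567 summed), with C1qa at 0 in both and C1qc at 0 in EVI1-WT. Most of the EVI1+18 sum was Gpnmb alone, at 242 and 1214 scaled CPM. The abundant Adgre1 (246 and 94.4) and Cd68 (241 and 193) lay below equality, and Csf1r (27.0 and 51.5) above. The early granulocyte list, with 2 of 6 markers lower, had 1451 and 1153 summed. Its genes differed in direction, with Ctsg at 626 and 280 scaled CPM. Mpo (539 and 585) and Prtn3 (127 and 201) lay above equality. Lymphoid markers summed to 3.50 and 2.24 scaled CPM, and stromal markers to 4.49 and 1.12. The part of these shifts in the transporter ratios was not tested, and fewer cells of a type and less RNA per cell cannot be told apart in bulk RNA.

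The SLC1 family was represented by its neutral amino acid carriers, and the 5 genes of its glutamate carriers had 0 counts. Slc1a4 (ASCT1), an exchanger of alanine, serine and cysteine, had 193 and 855 counts, or 9.64 and 39.8 scaled CPM. It was 4.13-fold higher in EVI1+18 (3.53 to 4.86). The gene lies on GRCm38 chromosome 11, 20302180 to 20332713, on the minus strand. Slc1a5 (ASCT2), the glutamine exchanger of proliferating cells, had 3766 and 5876 counts, or 188 and 274 scaled CPM. Its level in EVI1+18 was 1.46-fold higher (1.40 to 1.52), so both expressed SLC1 genes were on the same side, with only Slc1a4 beyond 2-fold.

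In the SLC38 family, sodium-coupled carriers of small neutral amino acids, the abundant members were less than 1.5-fold apart and a scarce one differed most. Slc38a1 had 5379 and 4458 counts and was 1.29-fold lower in EVI1+18 (1.24 to 1.35). Slc38a2, the adaptive carrier that cells raise when amino acids are short, had 4619 and 4833 counts. Its ratio was 0.977 (0.938 to 1.02), which holds equality, and its side of 1 changed with the scaling (1.02 with scaling by total counts). Slc38a5, a carrier of glutamine, glycine and serine on the X chromosome, had 3 and 42 counts, or 0.150 and 1.96 scaled CPM. It was 13.1-fold higher, with a wide interval of 4.18 to 65.9 that follows from the 3 counts.

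The other SLC38 genes above the filter were also less than 1.5-fold apart, in both directions. Slc38a7, a glutamine carrier of the lysosome, had 332 and 458 counts and was 1.29-fold higher (1.12 to 1.49). Slc38a9, the lysosomal arginine sensor that signals to mTORC1, had 394 and 380 counts, a ratio of 0.900 with an interval that held 1 (0.780 to 1.04). Slc38a10 had 4904 and 3793 counts and was 1.39-fold lower (1.33 to 1.45), and Slc38a6, with 272 and 243 counts, was 1.20-fold lower (1.005 to 1.43). Of the 50-base words in Slc38a6 transcripts, 22.8% also occur in other genes, so some of its reads could stand at another gene. In the SLC36 family of proton-coupled carriers, Slc36a1, which exports amino acids from lysosomes, had 983 and 726 counts and was 1.45-fold lower (1.32 to 1.60). Slc36a4 had 223 and 165 counts and was also 1.45-fold lower (1.18 to 1.78).

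The SLC6 family held the largest ratio of all 33 genes. Slc6a20a, 1 of 2 neighbouring mouse copies of the gene for a sodium-coupled proline carrier, had 20 and 1402 counts, or 0.999 and 65.3 scaled CPM. It was 65.4-fold higher (42.2 to 107). Its copy Slc6a20b had 5 and 156 counts, or 0.250 and 7.27 scaled CPM, and was 29.1-fold higher (12.2 to 90.9). Both copies were close to absent in the EVI1-WT library. Slc6a20b holds 15.3% of the 50-base words of Slc6a20a, and Slc6a20a holds 7.24% of those of Slc6a20b, so some reads could stand at either copy. Annotated exons on the opposite strand cover 21.1% of the exon bases of Slc6a20b (the gene Sacm1l, with 643 and 800 counts) and 13.8% of those of Slc6a20a (Gm17120, with 0 and 32 counts).

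Slc6a9 (GlyT1) takes up glycine, which developing red cells use to make haem. It had 112 and 624 counts, or 5.59 and 29.1 scaled CPM, and was 5.20-fold higher in EVI1+18 (4.25 to 6.42). It was measured beside the erythroid markers given above. Exons of Ccdc24 on the opposite strand cover 27.8% of its exon bases, and Ccdc24 itself had 1 and 2 counts. The creatine carrier Slc6a8 had 162 and 318 counts and was 1.83-fold higher (1.51 to 2.23), and the GABA carrier Slc6a13 had 336 and 542 counts and was 1.51-fold higher (1.31 to 1.73). Its neighbour Slc6a12, which carries betaine and GABA, had 148 and 189 counts, with an interval that held equality (0.956 to 1.49).

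Other SLC6 genes lay on the opposite side. Slc6a6, the taurine carrier and the most highly expressed gene of the family per exon length, had 5750 and 3942 counts, or 287 and 184 scaled CPM. Its ratio of EVI1+18 over EVI1-WT was 0.640 (0.614 to 0.666). Slc6a4, which takes up serotonin rather than an amino acid and is found in platelets and mast cells, had 871 and 501 counts and was 1.86-fold lower (1.67 to 2.08). Slc6a19, the neutral amino acid carrier of gut and kidney, stayed below the filter with 18 and 3 counts.

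The heavy chain Slc3a2 and the light chain Slc7a5 were the most abundant transporter transcripts per exon length. Of the 5 expressed light chains 1 was called lower and 4 were neither, beside 5.1% of all genes above the filter called lower. Slc3a2 had 8816 and 8848 counts, or 440 and 412 scaled CPM, and was 1.07-fold lower (1.04 to 1.10). Slc7a5 (LAT1), the main importer of leucine and other large neutral amino acids in growing cells, had 11976 and 9510 counts, or 598 and 443 scaled CPM, and was 1.35-fold lower (1.31 to 1.39). Slc7a8 (LAT2), which carries a wider range of neutral amino acids, had 1958 and 711 counts, or 97.8 and 33.1 scaled CPM. It was 2.95-fold lower in EVI1+18 (2.71 to 3.22), the 1 transporter gene whose whole interval lay beyond 2-fold in this direction.

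Slc7a11 (xCT) imports cystine in exchange for glutamate and so feeds glutathione synthesis. It had 3409 and 1798 counts, or 170 and 83.8 scaled CPM, and was 2.03-fold lower, with an interval of 1.92 to 2.15 that reached under 2. Slc7a6, which exchanges arginine for neutral amino acids, had 1465 and 868 counts and was 1.81-fold lower (1.66 to 1.97). Slc7a7, the related exchanger of macrophages and epithelia, had 107 and 150 counts and was 1.31-fold higher (1.01 to 1.69). Exons of Oxa1l on the opposite strand, with 1167 and 1423 counts, cover 6.998% of its exon bases.

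**Figure D2:**
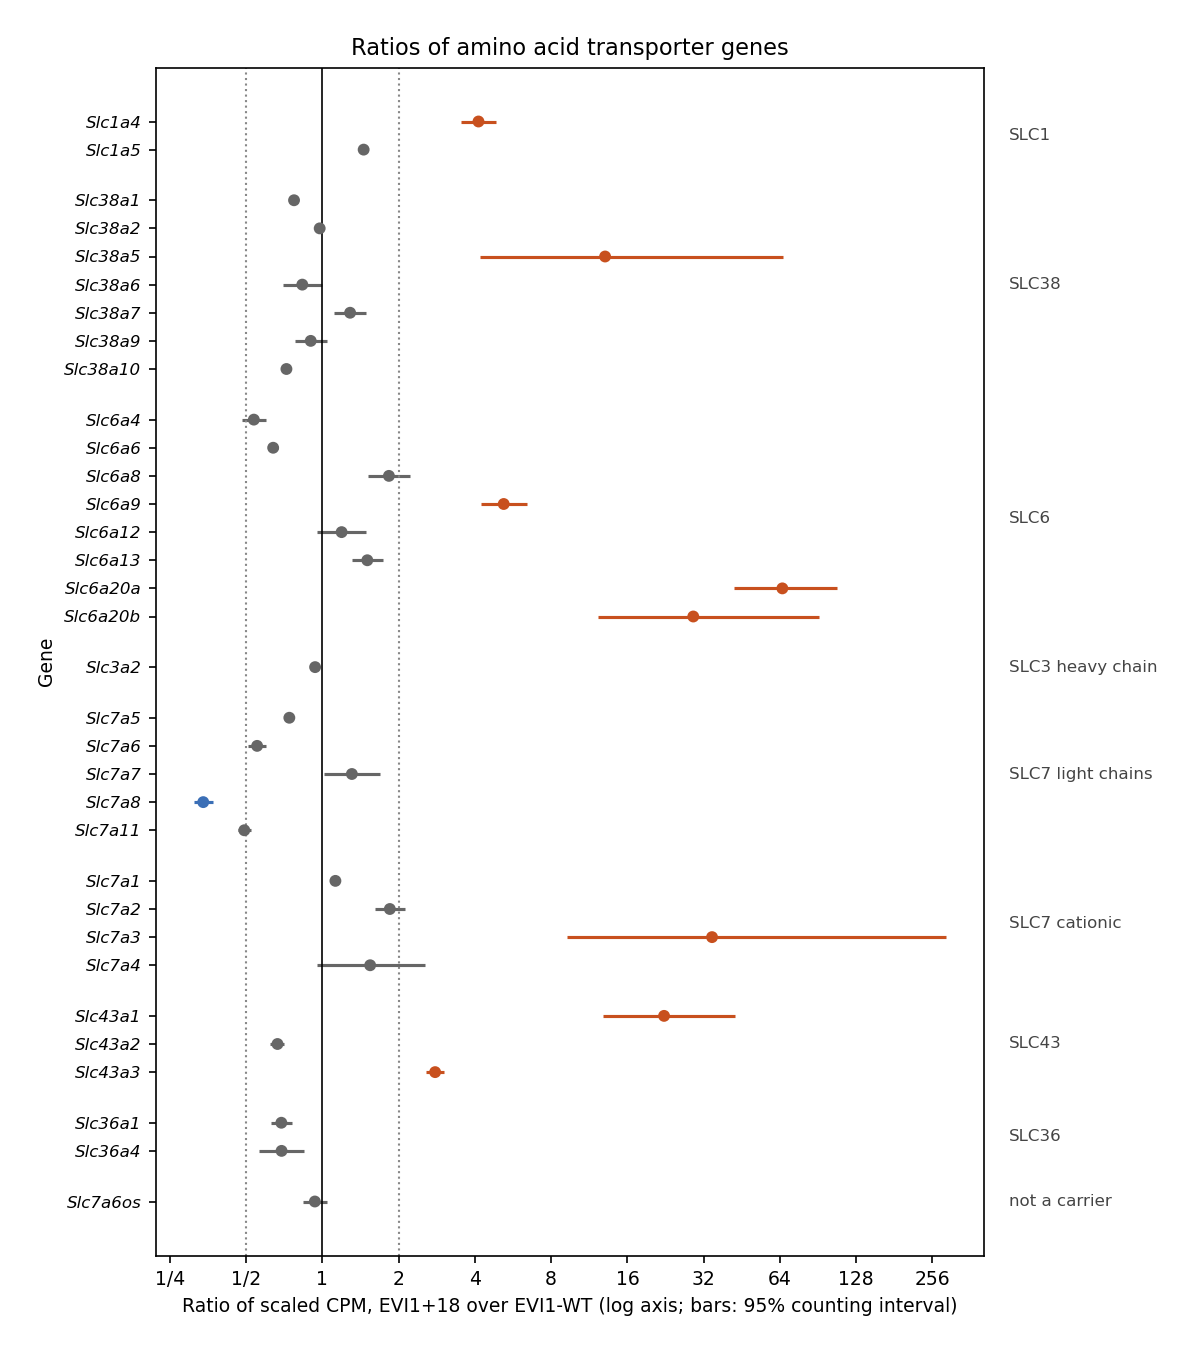
Ratio of scaled CPM in EVI1+18 over EVI1-WT on a log axis for the 33 transporter genes above the filter, with bars for the 95% counting interval, a solid line at 1 and dotted lines at 2 and 1/2. Orange genes lie wholly above 2 (8 genes), the blue gene wholly below 1/2 (Slc7a8), and grey genes are neither.

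Set per kilobase of annotated exon, so that genes can be compared within a library, Slc7a5 and Slc3a2 came first and second in both libraries. Slc7a5 stood at 161 and 120 scaled CPM per kb, and Slc3a2 at 125 and 117. The summed level of the light chains that pair with Slc3a2 was 211 in EVI1-WT and 143 in EVI1+18, which was 1.69 and 1.22 times the level of Slc3a2 itself. Slc7a5 made up 76.6% of that sum in EVI1-WT and 83.5% in EVI1+18, while Slc7a8 made up 9.27% and 4.63%. By this measure Slc6a20a stood at place 29 of the 33 genes in EVI1-WT (0.245 scaled CPM per kb) and place 9 in EVI1+18 (16), and Slc43a3 at places 14 and 6. Exon lengths are the union over annotated isoforms, so a gene with a long unused isoform is set too low in both libraries.

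Of the 4 cationic carriers above the filter, 1 was called higher, Slc7a3, which passed only through EVI1+18, and 3 were neither. Among all genes above the filter 5.05% were called higher. Slc7a1 (CAT1), the general importer of arginine and lysine, had 3444 and 4157 counts, or 172 and 194 scaled CPM, and was 1.13-fold higher (1.08 to 1.18). Slc7a2, an arginine carrier of macrophages and liver, had 338 and 669 counts and was 1.85-fold higher (1.62 to 2.11). Slc7a3 (CAT3), an X-linked arginine carrier known mainly from the brain and early embryo, had 2 and 74 counts, or 0.100 and 3.45 scaled CPM. It was 34.5-fold higher, with an interval of 9.23 to 290.5 set by the 2 counts in EVI1-WT. Slc7a4, a relative of the same group, had 29 and 48 counts, and its interval held equality (0.955 to 2.54). Per exon length Slc7a1 still made up 88.8% of the sum of Slc7a1, Slc7a2 and Slc7a3 in EVI1-WT and 79.5% in EVI1+18, and Slc7a3 0.157% and 4.31%.

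**Figure D3:**
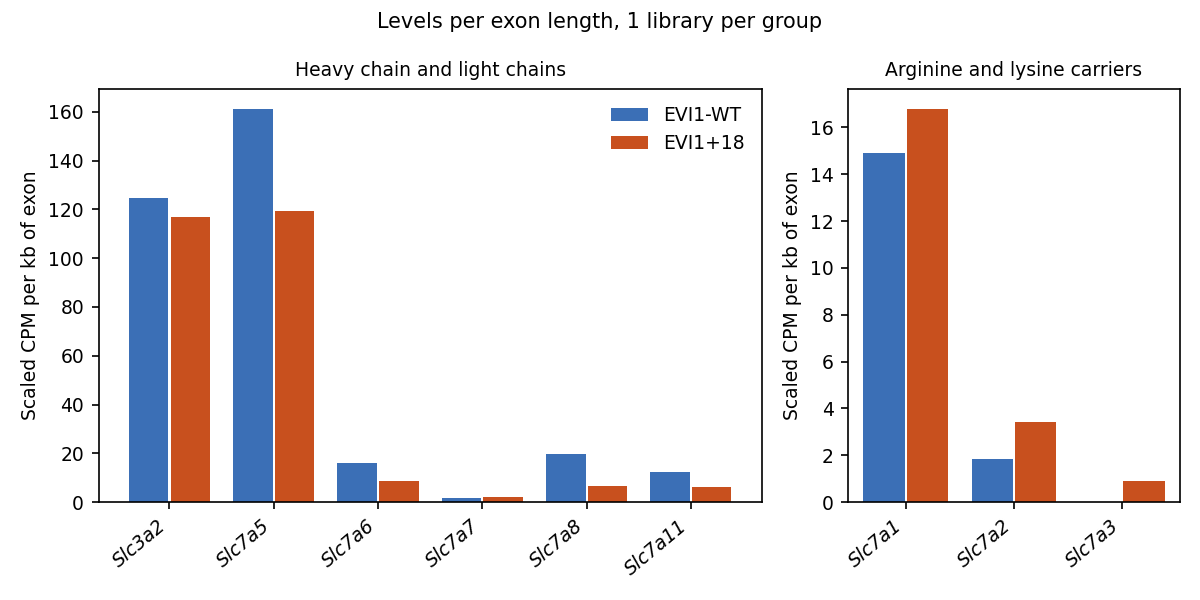
Scaled CPM per kilobase of exon in the EVI1-WT library (blue) and the EVI1+18 library (orange) for the heavy chain and its expressed light chains (left) and for the arginine and lysine carriers (right), on linear axes that differ between the panels. Slc7a5 stands at 161 and 120 and Slc3a2 at 125 and 117, and Slc7a3 is visible only in EVI1+18.

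The SLC43 genes went different ways. Slc43a1 (LAT3), a facilitated carrier of large neutral amino acids found in red-cell precursors, had 13 and 311 counts, or 0.649 and 14.5 scaled CPM, and was 22.3-fold higher in EVI1+18 (12.9 to 42.4). Slc43a2 (LAT4), which carries the same substrates, had 2314 and 1650 counts, or 116 and 76.9 scaled CPM, a ratio of 0.666 (0.624 to 0.709). Slc43a3 is a family member that carries purine nucleobases rather than amino acids. It had 796 and 2378 counts, or 39.7 and 111 scaled CPM, and was 2.79-fold higher (2.57 to 3.03). Summed per exon length, the large neutral amino acid carriers Slc7a5, Slc7a8, Slc43a1 and Slc43a2 stood at 192 in EVI1-WT and 136 in EVI1+18, of which Slc43a1 made up 0.0590% and 1.86%.

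Slc7a6os met the naming rule without being a transporter, since its symbol only marks its place opposite Slc7a6. It had 646 and 647 counts, a ratio of 0.935 with an interval that held 1 (0.837 to 1.04), and the counts of called genes are the same without it.

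The positions of the called genes were compared with those of their neighbours, taken as protein-coding genes above the filter whose start lies within 250 kb. For comparison, 10.1% of all genes above the filter were called in either direction. The starts of Slc6a20a and Slc6a20b lie 46.3 kb apart on chromosome 9 (123634770 to 123678885 and 123590800 to 123632565). Besides each other, their neighbours Limd1, Sacm1l, Lztfl1 and Fyco1 had ratios between 1.05 and 1.16. Ccr9, whose start lies 0.446 kb from that of Slc6a20a, was below the filter with 0 and 16 counts. Both Slc6a20a and Slc6a20b passed the filter only through EVI1+18. Around Slc1a4, Slc38a5, Slc6a9 and Slc7a3, 0 of 4, 0 of 7, 0 of 4 and 0 of 4 neighbours were called.

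The region of chromosome 2 that holds Slc43a1 (84838850 to 84863594) and Slc43a3 (84936579 to 84958509) had called neighbours. Of the 14 neighbours of Slc43a1, 4 were higher, Slc43a3 among them, and 2 were lower. Ube2l6, an enzyme that attaches the interferon-induced modifier ISG15, starts 40.02 kb before Slc43a1. It had 35 and 538 counts and was 14.3-fold higher (10.2 to 20.8). Ctnnd1, which encodes p120 catenin, had 20 and 278 counts and was 12.97-fold higher (8.24 to 21.6). The ion channel gene P2rx3, also higher, had 6 and 52 counts. Slc43a1, Ctnnd1 and P2rx3 passed the filter only through EVI1+18, so they could only be counted because they were higher there. The eosinophil granule genes Prg2 and Prg3 start 43.9 and 51.6 kb beyond Slc43a3 and were 4.63-fold and 4.28-fold lower, so genes within this stretch differed in opposite directions. Near Slc7a8 on chromosome 14, 1 of 13 neighbours was lower, the granulocyte transcription factor gene Cebpe, at 4.03-fold.

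**Figure D4:**
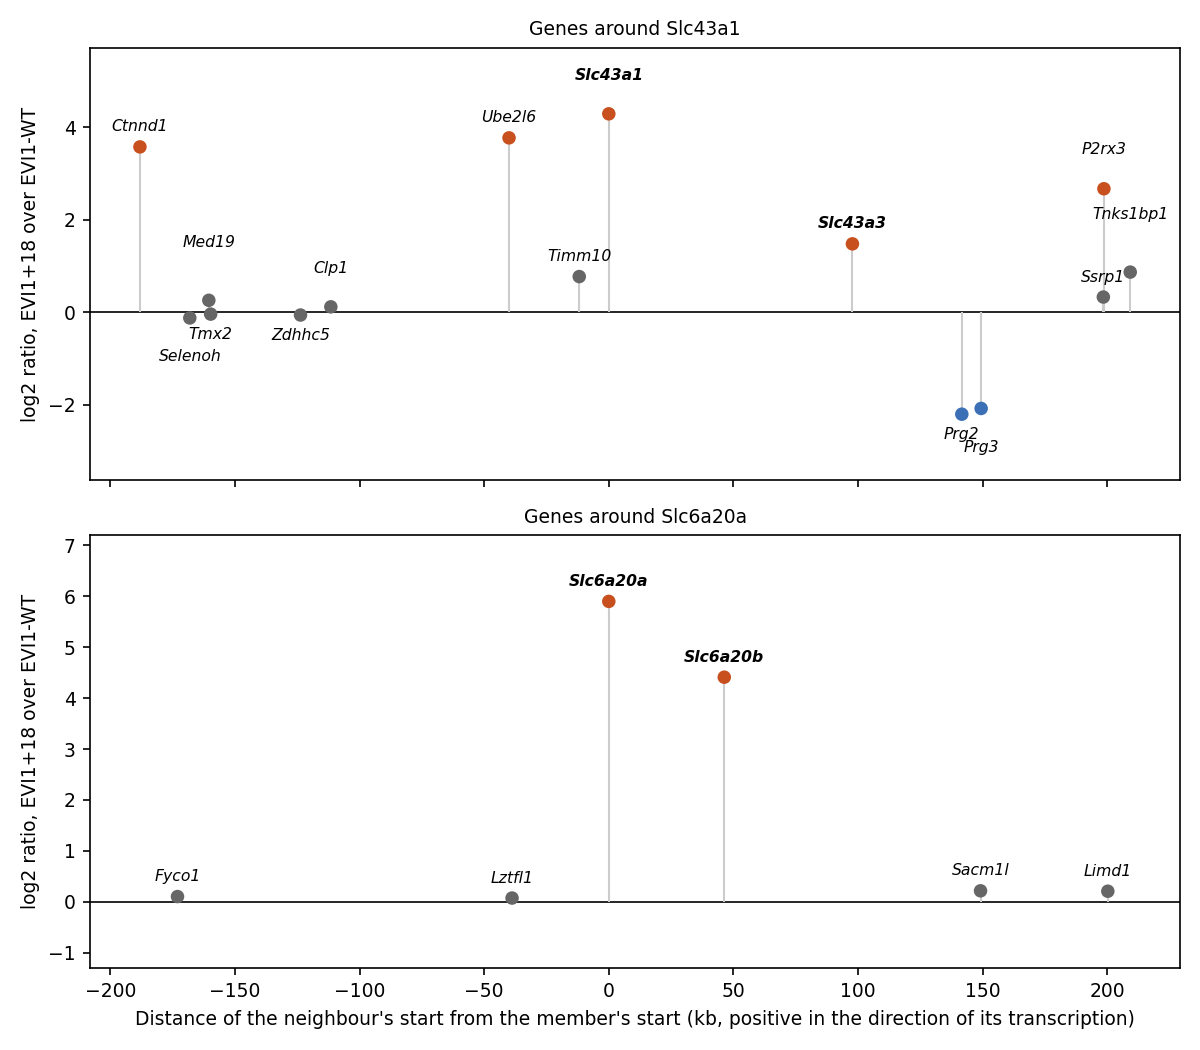
Log2 ratio of EVI1+18 over EVI1-WT for genes above the filter whose start lies within 250 kb of Slc43a1 (top) or Slc6a20a (bottom), against the distance between starts in kb. Orange genes are at least 2-fold higher, blue genes at least 2-fold lower and grey genes neither, and Slc6a20a and Slc6a20b are the only called genes in the lower panel.

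Genes that respond to amino acid supply were set beside the transporters. In a list of 28 genes of the amino acid response and ATF4 targets, 26 passed the filter, 9 were at least 2-fold higher in EVI1+18, 0 were lower and 22 had a log2 ratio above 0, beside 5.05% of all genes above the filter called higher. With the filter required in both libraries 7 were higher, since Cth and Vldlr passed only through EVI1+18. Under that filter 2.99% of all 11918 genes were higher. The median log2 ratio was 0.65, beside 0.01 over all genes. Cth, which makes cysteine from cystathionine, had 5 and 771 counts, or 0.250 and 35.9 scaled CPM, and was 144-fold higher (61.4 to 444.5). Atf5, a transcription factor related to ATF4, had 227 and 1877 counts and was 7.72-fold higher (6.72 to 8.90). Pycr1, which makes proline in mitochondria, had 111 and 423 counts and was 3.56-fold higher (2.88 to 4.42).

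Other called members of this list lay on the same side. Trib3 had 470 and 2512 counts, Atf3 217 and 825, and Asns, which makes asparagine, 1805 and 5448. Atf4 itself, the most abundant of the list in EVI1+18, had 7333 and 12696 counts and was 1.62-fold higher (1.57 to 1.66). Counts of transcripts say nothing of the translation of Atf4.

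The 20 cytosolic aminoacyl-tRNA synthetases, which load amino acids onto tRNAs, differed modestly, and 18 of them lay above 0. Their median log2 ratio was 0.58, beside 0.01 over all genes. By the interval rule 0 were called in either direction, beside 10.1% of all genes above the filter. Wars, for tryptophan, had 1804 and 3929 counts and was 2.03-fold higher, with an interval of 1.92 to 2.15 that reached under 2. Nars, for asparagine, was the most abundant in EVI1+18, with 6515 and 12215 counts and a 1.75-fold higher level (1.70 to 1.80). Farsa was 1 of the 2 that did not lie above 0, with 3041 and 2870 counts.

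Among 36 genes of amino acid sensing by mTORC1, 3 were at least 2-fold lower, beside 5.1% of all genes above the filter, 0 were higher, and the median log2 ratio was -0.06. The 3 were Castor1, Castor2 and Sesn3. Castor1, the cytosolic arginine sensor, had 267 and 53 counts and was 5.40-fold lower (4.01 to 7.39). Its relative Castor2 had 362 and 108 counts and was 3.59-fold lower (2.89 to 4.49), and Sesn3, of the sestrin family, had 226 and 79 counts and was 3.06-fold lower (2.36 to 4.01). Sesn2, the leucine sensor, had 1456 and 1982 counts and lay on the other side at 1.27-fold higher (1.19 to 1.36). Of the complex itself, Mtor had 1248 and 1328 counts and a ratio of 0.993 (0.919 to 1.07). The subunit gene Mlst8, with 268 and 157 counts, had a ratio of 0.547 (0.446 to 0.668). Sec13, the most abundant gene of the list, had 2780 and 2451 counts and a ratio of 0.823 (0.779 to 0.869).

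Of 28 enzymes that use the transported amino acids, 24 passed the filter, 3 were higher by at least 2-fold and 1 was lower, beside 5.05% and 5.1% of all genes above the filter, with 0.14 as the median log2 ratio. Arginase 1, Arg1, had 114 and 569 counts and was 4.66-fold higher (3.80 to 5.75). The other arginase gene, Arg2, had 49 and 30 counts and was 1.75-fold lower (1.09 to 2.86). Glutamine synthetase, Glul, had 337 and 1108 counts and was 3.07-fold higher (2.71 to 3.48), with 11.9% of its 50-base words found in other genes. Ass1, for 1 step of the route from citrulline to arginine, had 1354 and 3193 counts and was 2.201-fold higher (2.06 to 2.35). Of its words, 38.6% are found in the pseudogene Gm5424. Asl, of the same route, had 832 and 707 counts and was 1.26-fold lower (1.14 to 1.40). The glutaminase gene Gls2 had 66 and 20 counts and was 3.54-fold lower (2.12 to 6.16). It passed the filter only through EVI1-WT, with 0.932 scaled CPM in EVI1+18, and 0 of these enzymes were called lower with the filter in both libraries or at 5 scaled CPM. Gclm, a subunit of the enzyme that begins glutathione synthesis, was the most abundant in EVI1+18 with 3970 and 7623 counts. It was 1.79-fold higher (1.72 to 1.86), on the other side of equality from the cystine importer Slc7a11.

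Amino acid carriers of other families and of organelles showed no call in either direction, beside 10.1% of all genes above the filter. Of 20 carriers 16 passed the filter, 7 of them with a log2 ratio above 0, and the median log2 ratio was -0.21. Sfxn1, a mitochondrial serine carrier and the most abundant of them, had 4416 and 4126 counts and a ratio of 0.872 (0.836 to 0.910). Slc16a10 (TAT1), an aromatic amino acid carrier of the plasma membrane, had 412 and 653 counts and was 1.48-fold higher (1.31 to 1.68). Slc17a5 lay on the other side, with 472 and 285 counts and a ratio of 0.564 (0.485 to 0.654). Slc25a38, the mitochondrial glycine carrier needed for haem synthesis, had 583 and 929 counts and was 1.49-fold higher (1.34 to 1.65), beside 5.20-fold for the plasma membrane glycine carrier Slc6a9.

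**Figure D5:**
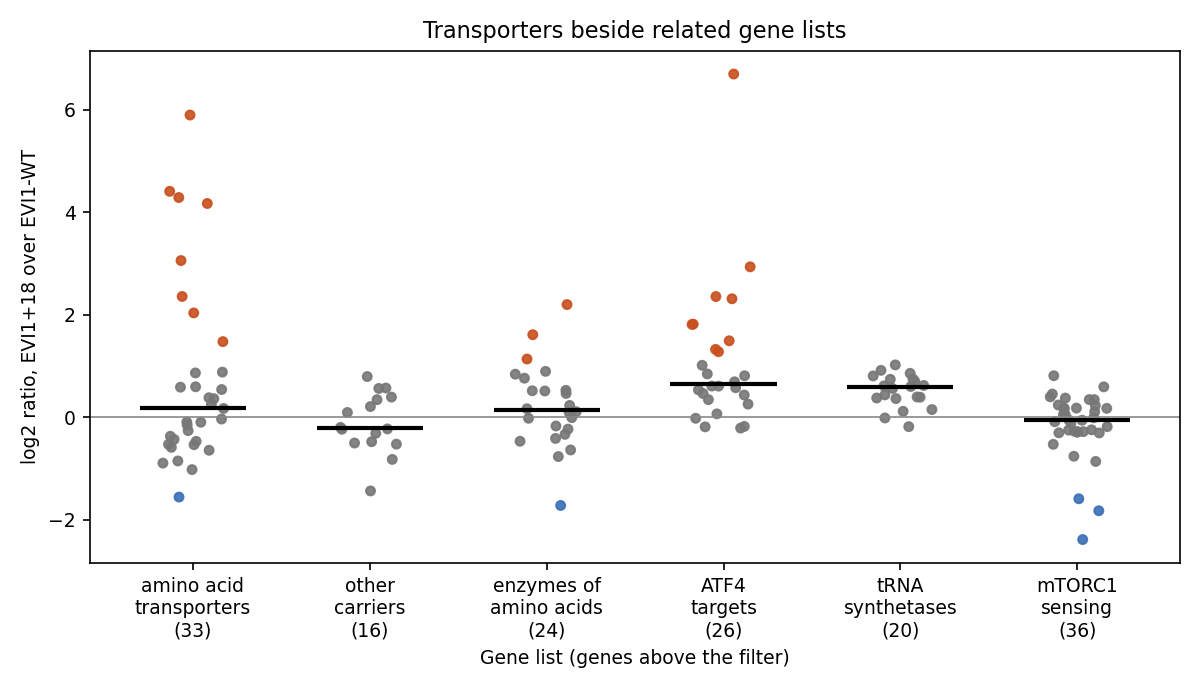
Log2 ratio of EVI1+18 over EVI1-WT (prior count of 2) for each gene above the filter in the transporter families and in 5 related lists, with the number of genes in brackets and a black bar at the median. Orange points are at least 2-fold higher, blue points at least 2-fold lower and grey points neither. The transporter points spread widest upward together with the ATF4 list, and the tRNA synthetases sit close together around their median of 0.58. The 5 highest transporter points are the genes that passed the filter only through EVI1+18, as did Cth, the highest ATF4 point.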

How the data were processed

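RNA was sequenced from 2 cultures, 1 library for each vector, and each column of the table was assigned by its name (0 columns were left without a sample). The values are read counts per Ensembl gene, which the authors deposited without normalization. GRCm38 was the build per the submitters' processing notes, which list the tools featureCounts, Subread, SAMtools, edgeR and HISAT2 2.2.1. Settings for strand and for multi-mapped reads are not given in these sources, so opposite-strand genes that overlap cannot be separated.

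Of 55487 IDs, 55141 matched GENCODE M21 (GRCm38), which gave symbols, types, coordinates and exon lengths. The other IDs held 0.0487% and 0.0429% of the counts. Libraries were scaled by TMM (edgeR 4.0.16, R 4.3.3), and ratios were given 95% exact Clopper-Pearson counting intervals (scipy 1.17.1). The libraries carry no stated molecular identifiers, so reads need not be independent molecules, and the intervals cover counting error only. With 1 library per group no test was possible, and none was run. Log2 ratios used a prior count of 2. The transporter genes, the 5 related lists, the markers and the rule for naming genes (every transporter gene above the filter, and of each list up to 6 called genes in each direction, ordered by the interval bound nearest 1, and the most abundant gene) were chosen with earlier results of these data known. Some other list genes and the neighbours were named after their values were seen. Counts were simulated with counting error only for the 12496 genes of at least 1 scaled CPM in EVI1-WT. Calls were made for 87.0% of true 3-fold changes and 96.0% of true 5-fold changes. These rates do not cover the 5 transporter genes that passed the filter only through EVI1+18.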

Additional observations from a re-analysis of the deposited data

How the results depend on the processing

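Scaling by total counts, DESeq2 size factors, other filters, another prior count and other call rules were tried. The 8 higher and 1 lower transporter genes stayed within 1.5 times those numbers under both other scalings, without a filter and with a filter at 5 scaled CPM. With the filter required in both libraries, a choice made after seeing the data, 3 were higher and the median log2 ratio was -0.10, and the filter at 5 scaled CPM also gave a negative median, -0.06. With the point ratio alone 2 were lower, and with a limit of 1.5-fold 5 were lower. Only Slc38a2, of 33 genes, changed its side of 1 with the scaling. For the tRNA synthetases, scaling by total counts gave a median of 0.65 and 1 higher gene, the point ratio 1 and the 1.5-fold limit 7. For the enzymes, the 1.5-fold limit gave 6 higher, and 0 were lower with the filter at 5 scaled CPM or in both libraries. For the carriers of other families, the 1.5-fold limit gave 1 higher and 1 lower, and the point ratio 1 lower. The median over all genes was 0.01 with TMM, 0.08 with total counts and 0.03 with size factors. No paired analysis was possible because each group holds 1 library, and no library could be left out. Genes with 2 to 20 counts in EVI1-WT (Slc7a3, Slc38a5, Slc6a20b, Slc43a1, Slc6a20a) have wide intervals.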
